A study of Mus musculus with 36 samples.

Results

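The regions described here are 15 accessible peaks of mouse CD4 T cells in 2 windows of 100 kb on GRCm39, chosen from 71509 peaks of the series. The Cfap53 window on chromosome 18, from 74.45 to 74.55 Mb, held 7 peaks, and the Gm49214 window on chromosome 15, from 31.41 to 31.51 Mb, held 8. A peak was a member when it started inside a window. Both windows were chosen by the measured difference between T cells without HP1γ and wild-type (WT) cells, so the values of that contrast are given as a description and carry no p-value. Peaks are numbered from the low coordinate of each window, as Cfap53 peak 1 to 7 and Gm49214 peak 1 to 8.

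HP1α and HP1γ, encoded by Cbx5 and Cbx3, are small non-histone proteins that bind histone H3 methylated at lysine 9. They are known for compacting heterochromatin and for keeping repeated sequences and genes of other lineages silent. Cfap53 encodes a protein of motile cilia and flagella, structures that T cells do not build. Ropn1l, which lies in the chromosome 15 window, encodes a protein of sperm flagella and cilia. Gm49214 is a processed pseudogene, a copy of a messenger RNA pasted back into the genome, and it sits inside Marchf6, which encodes a ubiquitin ligase of the endoplasmic reticulum.

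The 36 libraries, in 12 groups of 3, are ATAC-seq, where a transposase cuts open DNA and leaves adapters there. HP1γ knockout (KO) cells came from mice with floxed Hp1g and a Cd4-cre transgene, which is active from the thymus onwards in T cells, and their WT cells from floxed littermates without Cre. HP1α KO cells came from Hp1a-/- mice, which lack the gene in every tissue, and their WT cells from Hp1a+/+ littermates. Donors of all groups were males of 6 to 12 weeks on a mixed 129/Sv and C57BL/6 background. Each line gave 3 conditions. Naive CD4 T cells were purified from spleen. Conventional T cells (Tconv) were Vβ6+ CD4 T cells sorted from the spleen 3 weeks after naive cells had been injected into lethally irradiated B6 hosts together with a mixture of B6 and B6D2F1 marrow, either alone or together with ex vivo expanded WT regulatory T cells (Treg). In such bulk libraries, fewer cells with an open region and less opening in each cell cannot be told apart.

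The total count in peaks ranged from 1.49 to 96.8 M reads per library. All naive libraries of the HP1α line held at least 55.3 M and all libraries of the HP1γ line at least 19.4 M, while HP1α Tconv with Treg ranged from 1.49 to 50.7 M. The comparisons of HP1α cells with Treg used 2 WT libraries and 1 KO library, because the study left the other 3 out. The start sites of Cbx3 and Cbx5, which do not show whether a gene was deleted, differed between KO and WT by log2 fold changes of up to 0.15 in the HP1γ line and 0.30 in the HP1α line, and neither passed the test. Of 8 T cell genes 7 had a start-site peak, with summed levels of 337 to 838 CPM (reads of a peak per 1e+06 reads in peaks, after scaling), whereas 0 of 4 B cell genes and 0 of 2 natural killer genes had one, and the peaks of 2 myeloid genes summed to 6.42 to 25 CPM. The peak of 1 of these, Itgam, was called lower in HP1γ KO with Treg (log2 fold change -1.32, adjusted p = 0.00906, edgeR). The 1 CD8 T cell gene with a peak held 2.66 to 35.9 CPM and Foxp3, which defines Treg, 30.2 to 172 CPM.

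The lead peak of each window lay outside the gene that the window is named after. Cfap53 peaks 1 and 2 (chr18:74457541-74457840 and chr18:74476491-74477080) lay in introns of Cfap53. Cfap53 peak 3 (chr18:74500261-74501970), the lead peak because its mean log2 fold change without HP1γ was the highest in the window among peaks whose folds could be given in all conditions, lay beyond the 3′ end of the gene at position 74493057, between genes. Peaks 4 to 7 lay further out on the same side, up to chr18:74535291-74536070.

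None of the 8 peaks of the Gm49214 window overlapped Gm49214 itself (chr15:31462427-31462777, forward strand). The lead peak, Gm49214 peak 5 (chr15:31458311-31460030), covered the intron-side part of the last exon of Marchf6, with the coding end and the first part of the 3′ untranslated region, and part of the preceding intron. Gm49214 peak 6 (chr15:31460781-31461480) and peak 7 (chr15:31472801-31473480) were in Marchf6 introns. Gm49214 peak 4 (chr15:31452291-31456170) spanned the start site of Ropn1l and also reached the 3′ end of Marchf6. Peak 3 (chr15:31447311-31447850) lay in an intron of Ropn1l, and peak 1 (chr15:31418071-31419590) covered the start site of the noncoding gene Gm63140. Peak 2 (chr15:31439791-31440400) was between genes.

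The intronic stretch of the lead peak and the coding edge of Gm49214 peak 8 (chr15:31502431-31502910), a further peak with a large difference, are printed below because the first holds no repeated sequence and the second joins an intron to a coding exon. Both are forward-strand GRCm39 sequence, and capitals mark the 45 coding bases of Marchf6, whose transcript reads the other strand.
Gm49214 peak 5, Marchf6 intron, chr15:31459426-31459725: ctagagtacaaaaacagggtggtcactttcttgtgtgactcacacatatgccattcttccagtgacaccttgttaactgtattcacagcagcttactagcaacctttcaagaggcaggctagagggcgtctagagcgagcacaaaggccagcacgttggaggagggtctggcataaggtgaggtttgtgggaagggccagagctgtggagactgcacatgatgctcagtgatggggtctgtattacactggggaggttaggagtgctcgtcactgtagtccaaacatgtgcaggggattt
Gm49214 peak 8, Marchf6 intron and exon, chr15:31502611-31502910: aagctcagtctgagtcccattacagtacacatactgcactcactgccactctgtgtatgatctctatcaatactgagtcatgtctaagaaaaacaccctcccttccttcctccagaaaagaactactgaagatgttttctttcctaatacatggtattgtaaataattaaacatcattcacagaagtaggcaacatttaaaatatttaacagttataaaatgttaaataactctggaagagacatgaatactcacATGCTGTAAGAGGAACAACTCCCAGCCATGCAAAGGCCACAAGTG
The stretch of peak 5 has a GC content of 50.7% and that of peak 8 of 37.3%.

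The windows differed in how much of their sequence recurs in the genome. Of all words of 24 bases in Cfap53 peaks 1 to 7, between 11 and 56.7% occurred more than once in GRCm39, with 56.7% in peak 1, 43.9% in peak 2, 21.2% in peak 3 and 44.0% in peak 5. Among every 50th peak of the table (1431 peaks), the median was 1.73% and the third quartile 7.58%, and 18.3% of those peaks reached the lowest value of the Cfap53 window. In the Gm49214 window the share was 0% in peaks 3 and 5, at most 7.44% in 5 others and 19.3% in peak 7. Alignments to the genome, counted at 80% identity or more over at least 200 bp, placed copies of Cfap53 peak 2 at 873 other sites, of peak 5 at 230 and of peak 3 at 125, and found 0 other sites for Gm49214 peak 5. Cfap53 peaks 2 and 3 also matched each other over 226 bp at 93.8% identity, so that these members are not independent sequences. The authors kept reads of high mapping quality only, and the part of repeated sequence in the counts was not tested.

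**Figure D1:**
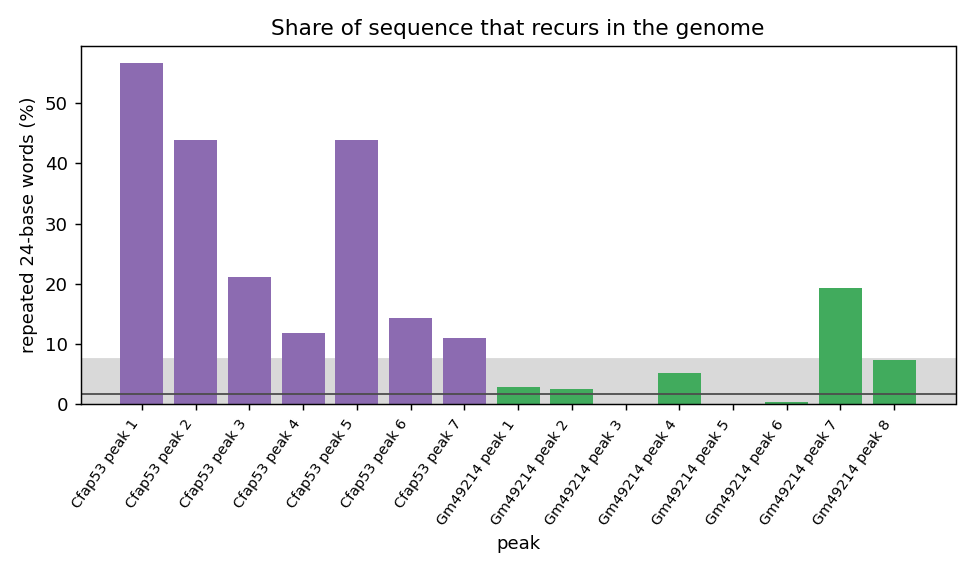
Share of the words of 24 bases in each of the 15 peaks that occur more than once in GRCm39, in percent (bars; purple, Cfap53 window; green, Gm49214 window). The grey band runs from the first to the third quartile of every 50th peak (0 to 7.58%) and the line is their median (1.73%); all 7 Cfap53 peaks stand above the band, and 1 of the 8 Gm49214 peaks does.

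In naive cells Cfap53 peak 3 was nearly closed in WT and open without HP1γ. The naive HP1γ WT libraries held 28, 16 and 24 reads, which is 0.433, 0.217 and 0.293 CPM, and the KO libraries 361, 370 and 978 reads, which is 11.4, 12.4 and 13.3 CPM. The groups did not overlap, and the means were 0.314 ± 0.109 and 12.4 ± 0.950 CPM (SD, n = 3), a 41.1-fold difference (log2 fold change 5.36). The 3 KO libraries gave similar levels although 2 of them held 32.4 and 33.9 M reads and the third 82.4 M.

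After transfer the same peak was higher in both genotypes. Tconv libraries held 2.28, 2.68 and 1.48 CPM in HP1γ WT and 28.2, 27.5 and 29.9 CPM in KO, a 13.3-fold difference. With Treg, the WT libraries held 1.21, 2.39 and 4.14 CPM and the KO libraries 12.5, 25.8 and 25.4 CPM, a 9.5-fold difference. No KO library overlapped a WT library in any condition. Among the 71508 peaks tested, the log2 fold change of this peak came at rank 26 from the top (naive), 15 (Tconv) and 21 (Treg).

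Gm49214 peak 5 showed a smaller fold difference than Cfap53 peak 3 in each condition. Naive HP1γ WT libraries held 69, 68 and 101 reads (1.07, 0.923 and 1.23 CPM) and KO libraries 293, 395 and 918 reads (9.28, 13.2 and 12.5 CPM), which is an 11.1-fold difference (log2 3.48). Tconv held 0.959, 1.22 and 1.48 CPM in WT and 10.6, 9.43 and 9.21 CPM in KO, an 8.17-fold difference. With Treg the WT libraries held 1.82, 2.71 and 3.09 CPM and the KO libraries held 8.92, 10.2 and 8.20 CPM, a 3.86-fold difference. KO and WT were apart in all 3 conditions, and the lowest KO library exceeded the highest WT library by the least margin with Treg. Among all peaks the difference came at rank 184 (naive), 59 (Tconv) and 905 (Treg).

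**Figure D2:**
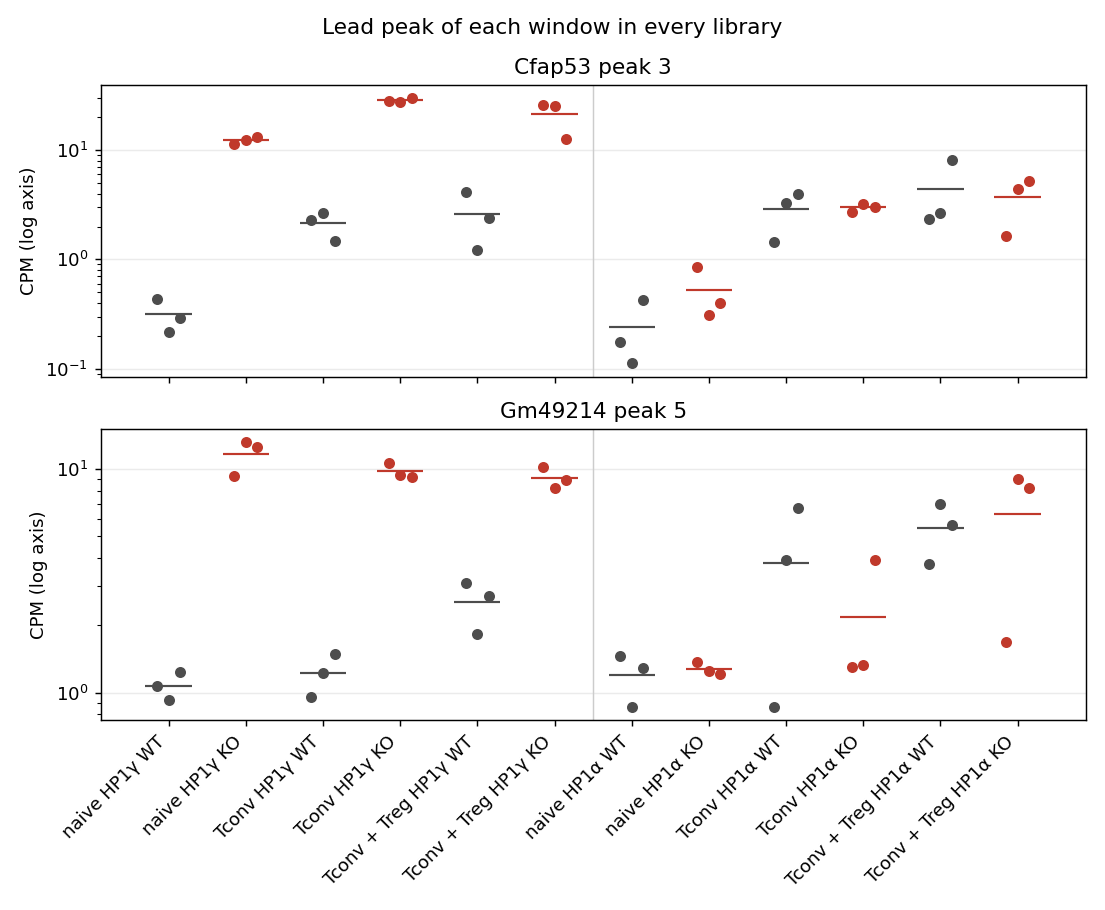
CPM of Cfap53 peak 3 (top) and Gm49214 peak 5 (bottom) on a log axis in every library of the 12 groups, with WT in grey, KO in red and the mean of 3 libraries as a bar; the HP1γ line is left of the vertical line and the HP1α line right of it. HP1γ KO libraries lie between 11.4 and 29.9 CPM for Cfap53 peak 3 and between 8.20 and 13.2 CPM for Gm49214 peak 5, above every HP1γ WT library.

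The remaining peaks of the Cfap53 window also had higher fitted levels without HP1γ in each condition, although KO and WT libraries overlapped at peaks 5 and 7 with Treg. Cfap53 peak 2, in an intron, held 1, 4 and 4 reads in naive HP1γ WT and 8, 13 and 24 in KO, and its mean level in Tconv was 0.629 ± 0.155 CPM in WT and 7.33 ± 3.30 CPM in KO (SD, n = 3). Cfap53 peak 6, the widest of the window, held 4.2, 4.0 and 4.73 CPM in naive HP1γ WT and 15.2, 19.5 and 20.9 CPM in KO, and its log2 fold change was 2.15 (naive), 2.91 (Tconv) and 2.92 (Treg). No fold is given in naive cells for peaks 1 and 5, because WT libraries held at most 3 reads there. They held 3, 2 and 2 reads in WT and 17, 15 and 11 in KO for peak 1, and 1, 0 and 0 in WT and 27, 29 and 64 in KO for peak 5. The smallest differences were those of peak 7, at log2 fold changes of 0.56, 1.44 and 1.19.

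The other members of the Gm49214 window differed among themselves. Gm49214 peak 8 held 9, 2 and 8 reads in naive HP1γ WT and 36, 31 and 98 in KO, and its log2 fold change was 3.81 (naive), 2.53 (Tconv) and 1.91 (Treg). Peak 6 (0.95, 1.87 and 1.14), peak 2 (1.95, 1.13 and 0.12) and peak 3 (0.34, 1.06 and 0.68) passed a log2 fold change of 1 in some conditions. At the start site of Ropn1l, Gm49214 peak 4, the values were 0.18, 0.61 and 0.72. Peak 7 had 0.50, 0.65 and 0.12, and peak 1 had 0.35, 0.59 and 0.09.

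All 15 peaks passed the filter on low counts, and all 15 had a fitted log2 fold change above 0 without HP1γ in all 3 conditions, although with Treg the mean log2 CPM of Gm49214 peak 7 was 0.47 in KO and 0.50 in WT. Under the rule applied to the whole table, an adjusted p under 0.05 with an absolute log2 fold change over 1 in edgeR's quasi-likelihood test, 6 (naive), 12 (Tconv) and 10 (Treg) of 15 peaks were called higher and 0 lower. The whole table had 0.133%, 1.69% and 6.48% higher calls. KO and WT libraries did not overlap, with KO higher, at 13, 14 and 10 of the 15 peaks, against 14.1%, 10.4% and 15.3% of all peaks. The median log2 fold change of the members was 2.15, 2.53 and 1.91 beside 0.03, 0.02 and -0.02 for all peaks, and the first was also 2.15 with peaks 1 and 5 of the Cfap53 window set to 3 reads in each WT library. Because this contrast chose the windows, nothing is read from these shares.

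Peaks beside the Cfap53 window also had fitted levels above WT without HP1γ, but none of the nearest was called in naive cells. Within 100 kb outside it, all 14 peaks had fitted values above 0 in all 3 conditions, with median log2 fold changes of 0.64, 1.57 and 1.26, and 0, 10 and 10 of them were called higher, where 0.133%, 1.69% and 6.48% of all peaks were. Between 100 and 500 kb outside, the medians over 29 peaks were -0.02, 0.05 and -0.12, with 0, 1 and 2 called higher and 0, 1 and 4 lower. The nearest peaks beyond the 2 borders had log2 fold changes of 2.66, 2.0 and 1.5 on the low side and 0.96, 1.62 and 0.96 on the high side. The low-side peak had a mean level of only 0.205 CPM over the HP1γ WT libraries and 0.657 CPM in KO, so its folds rest on low counts. The start site of Cfap53 differed by 0.43, 0.79 and 1.2, and that of Myo5b, a myosin motor gene, by 0.58, 2.13 and 1.32. The start site of Mbd1, a binder of methylated DNA, 49.5 kb outside, differed by 0.06, 0.02 and 0.10, and the one shared by Cxxc1 and Ska1, at 101.57 kb, by 0.11, -0.03 and 0.11. Those 2 promoters had median levels over 36 libraries of 48.5 and 85 CPM, compared with 3.70 CPM at the Cfap53 start site and 0.496 CPM at that of Myo5b.

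Around the Gm49214 window the pattern was patchier. Of 18 peaks within 100 kb outside, 15, 15 and 17 were above 0, 5, 5 and 4 were called higher (0.133%, 1.69% and 6.48% of all peaks) and 0 lower, and the medians were 0.81, 0.94 and 0.72. The low-side neighbour, at the start site of Ankrd33b, had log2 fold changes of 3.59, 1.27 and 1.19 from a median level of 0.522 CPM. The high-side neighbour, in a Marchf6 intron, had -1.27, -0.68 and -0.74. A coding exon of Cmbl, a hydrolase gene 75.3 kb outside, had 2.57, 2.33 and 1.92. The start sites of Marchf6 (0.14, 0.00 and 0.09) and of the chaperonin gene Cct5 (-0.01, -0.05 and 0.03) were at median levels of 99.0 and 83.5 CPM. Between 100 and 500 kb outside, 0, 1 and 2 of 14 peaks were called higher.

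**Figure D3:**
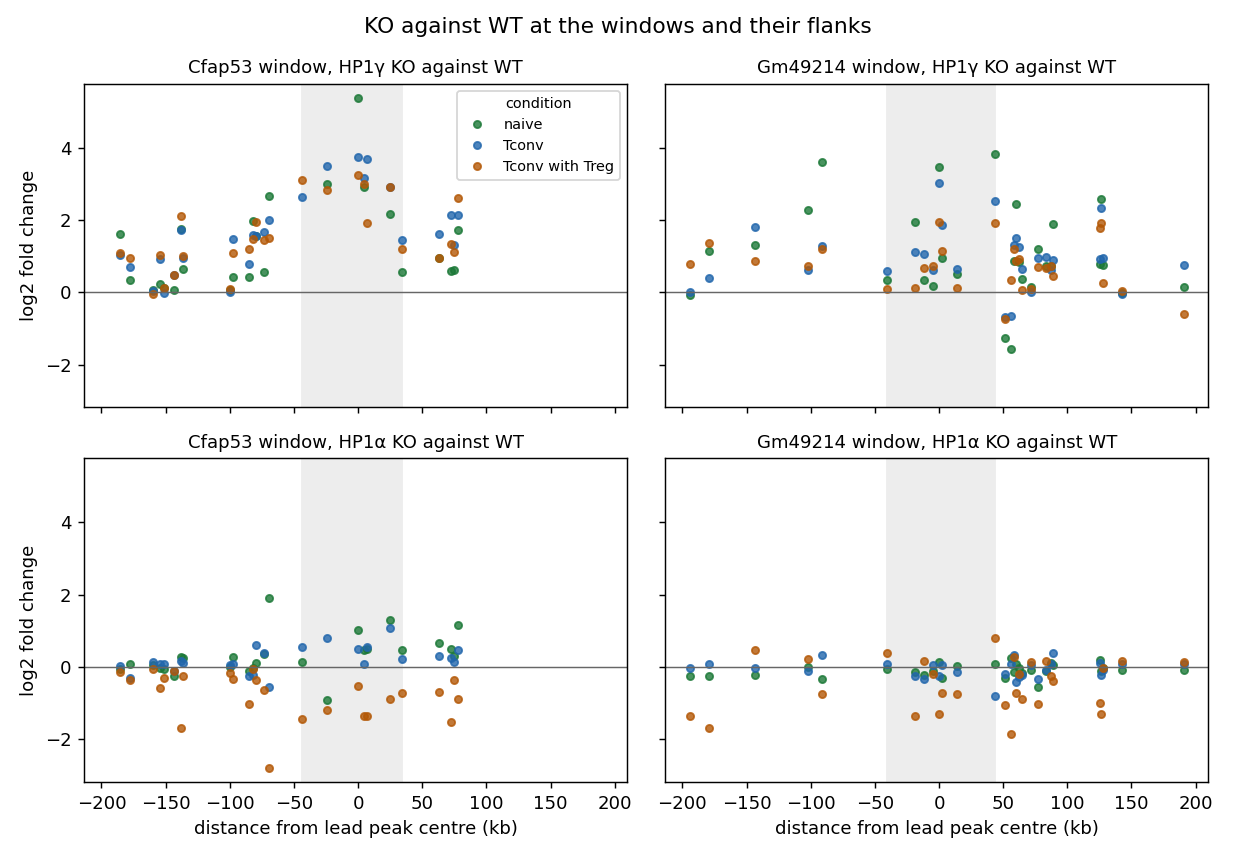
Log2 fold change of KO against WT (y axis) at each peak within 200 kb of the lead peak's centre (x axis, kb), for HP1γ (top) and HP1α (bottom), with 1 colour for each condition and the span of the member peaks in grey. Naive HP1γ values of Cfap53 peaks 1 and 5 are left out, and neighbours are drawn whatever their level. Without HP1γ the Cfap53 peaks reach 5.36 and fall to both sides, while several promoters stay near 0; without HP1α no member passed the test, and the values with Treg come from 1 KO library.

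Without HP1α no member passed the test. The smallest adjusted p of any member in edgeR's quasi-likelihood test was 0.227 (naive), 0.463 (Tconv) and 0.479 (Treg), and 0 of 15 peaks passed in each, where 0.00559%, 0.021% and 1.63% of all peaks did. The comparison with Treg sets 1 KO library against 2 WT libraries, and the lone library is assumed to vary like the other groups. Its 1168 calls over all peaks became 0 without WT replicate 1, 521 without WT replicate 2 and 0 in a fit of only the groups compared, and the 15 calls in Tconv became 1 without WT replicate 1 and 340 without KO replicate 1. At an unadjusted p under 0.05 there were 2, 1 and 0 of 15 members, where 1.17%, 4.82% and 16.3% of all peaks were. DESeq2 also called 0 members in each. In the Cfap53 window 6 (naive), 7 (Tconv) and 0 (Treg) of 7 peaks had a fitted log2 fold change above 0, with medians of 0.47, 0.55 and -1.18. In the Gm49214 window 3 of 8 did in each condition, with medians of -0.08, -0.19 and -0.45. The medians of all peaks were 0.00, -0.03 and -0.11. The mean log2 CPM differed in the opposite direction to the fitted value at Cfap53 peak 1 (naive), at Cfap53 peaks 4 and 7 and Gm49214 peak 6 (Tconv), and at Cfap53 peaks 1 and 7 and Gm49214 peak 3 (Treg), so these fitted signs are no direction.

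At the lead peaks the naive HP1α libraries, all of which were deep, gave the clearest reading. Cfap53 peak 3 held 0.174, 0.112 and 0.429 CPM in HP1α WT and 0.851, 0.309 and 0.401 CPM in KO. These groups overlapped, and the log2 fold change of 1.03 had an adjusted p of 1.0 in edgeR. Gm49214 peak 5 held 1.46, 0.864 and 1.29 CPM in WT and 1.38, 1.25 and 1.22 CPM in KO, with a log2 fold change of 0.14 and its adjusted p was also 1.0. Both genotypes of the HP1α line were close to the HP1γ WT level and far under HP1γ KO.

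One member stood out among the naive HP1α values without passing the test. Cfap53 peak 6 held 179, 247 and 264 reads in WT (3.90, 2.77 and 3.33 CPM) and 486, 704 and 520 in KO (7.96, 9.06 and 6.95 CPM). The groups did not overlap, with KO higher, as at 2.9% of all peaks. The log2 fold change was 1.30 with an adjusted p of 0.227 in edgeR, and in Tconv it was 1.08 with 0.463 and overlapping groups. Without Tconv WT replicate 2 the Tconv value became 1.69 with an adjusted p of 0.042, which passed. With Treg, where the KO group is 1 library, 0 of 7 Cfap53 peaks passed. Their fitted values were -1.44 to -0.52, but at peaks 1 and 7 the mean log2 CPM was higher in KO (-1.40 against -2.23, and 1.2 against 1.11), so that no direction is given there.

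HP1α libraries after transfer differed in depth. Gm49214 peak 5 held 0.861, 3.91 and 6.68 CPM in HP1α WT Tconv libraries of 74.4, 19.7 and 6.20 M reads. With Treg it held 1.69, 9.0 and 8.2 CPM in KO libraries of 50.7, 7.12 and 5.73 M reads, of which the last 2 were left out of the comparisons, and 3.76, 6.95 and 5.61 CPM in WT libraries of 12.7, 1.49 and 3.20 M reads. Within each of these 3 groups the deepest library had the lowest level. The part of depth in these levels was not tested.

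Over the 12 groups, the 3 HP1γ KO groups had the highest means at both lead peaks. For Cfap53 peak 3 the order was Tconv (28.5 ± 1.23 CPM), Tconv with Treg (21.2 ± 7.54) and naive cells (12.4 ± 0.950), of which the last overlapped the second but not the first. The other transferred groups followed with means of 2.15 to 4.4 CPM, each overlapping its neighbour in the order, and the 3 other naive groups came last with 0.239 to 0.520 CPM, which also overlapped. For Gm49214 peak 5 the HP1γ KO groups came in the order naive, Tconv and Tconv with Treg, with means of 11.7 ± 2.10, 9.75 ± 0.763 and 9.10 ± 1.01 CPM that overlapped one after another. The last of these, with a lowest library of 8.20 CPM, also overlapped HP1α KO with Treg, which reached 9.0 CPM. The remaining 9 groups ran from 6.30 ± 4.01 CPM in HP1α KO with Treg to 1.07 ± 0.155 in naive HP1γ WT, each overlapping the next.

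Some peaks of the Cfap53 window were higher in Tconv than in naive cells of WT mice. Because Tconv and naive cells differ in host, sort and time, these cannot be told apart. The HP1γ libraries compared are those whose KO against WT contrast chose the windows. Their folds and p-values here are therefore not free of that choice. Comparing Tconv with naive WT cells, 5 of 7 Cfap53 peaks were called higher in the HP1γ line and 3 in the HP1α line, and 0 lower, where 24.9% of all peaks were called higher in HP1α WT and 24.5% in HP1γ WT. The 5 include peaks 1 and 5, for which no fold is given, as naive HP1γ WT libraries held at most 3 reads there. Cfap53 peak 3 rose by a log2 fold change of 2.87 in HP1γ WT (adjusted p = 0.000932, edgeR) and of 3.15 in HP1α WT (2.09e-05), with no overlap in either. Peak 4 rose by 2.56 and 3.72, and the HP1α WT value became 2.66 with an adjusted p of 0.0567 without Tconv replicate 2. Peak 2 rose by 3.94 and 2.72, of which the latter became 2.08 and did not pass without naive replicate 2, and became 1.44 (adjusted p = 0.0928, edgeR) with loess offsets on abundance. Peaks 6 and 7 had values between 0.19 and 0.35 and did not pass.

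KO cells of both lines gave a like count. In HP1α KO, 5 Cfap53 peaks were called higher, with peak 2 at 4.43, and in HP1γ KO 6 were, with peak 2 at 4.44 and peak 3 at 1.24 (adjusted p = 8.78e-05, edgeR). Of the 5 in HP1α KO, peak 1 (2.11) lost its call with loess offsets on abundance. Of all peaks, 23.5% were called higher in HP1α KO and 22.4% in HP1γ KO. The difference between genotypes in the rise was not tested, since the HP1γ contrast chose the peaks.

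Of the Gm49214 peaks some were called higher and others lower in Tconv than in naive cells. Here too the HP1γ libraries are those of the contrast that chose the windows. In HP1γ WT, 2 peaks were called higher and 4 lower, and in HP1α WT 2 and 3. Peak 1, at the start of Gm63140, fell by 2.34 and 1.79 on the log2 scale, and it fell by 2.10 and 1.66 in HP1γ KO and HP1α KO. Peak 7 fell by 2.15 and 1.33 in the WT cells of the HP1γ and HP1α lines, and the latter became -0.88, under the fold threshold, without HP1α WT Tconv replicate 1. Peak 8 rose by 2.45 (adjusted p = 0.000218, edgeR) and 2.14 (0.00628), and without HP1α WT Tconv replicate 2 the latter became 1.43 with 0.0905. With loess offsets on abundance it became 0.40 with 0.448. The lead peak did not pass in any of the 4 comparisons, with log2 fold changes between -0.23 and 0.90, and its naive and Tconv libraries overlapped in all 4. Of all peaks, 22% were called lower in HP1γ WT and 17.5% in HP1α WT, and 24.5% and 24.9% higher, so that 2 of 8 higher is near the share of all peaks.

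**Figure D4:**
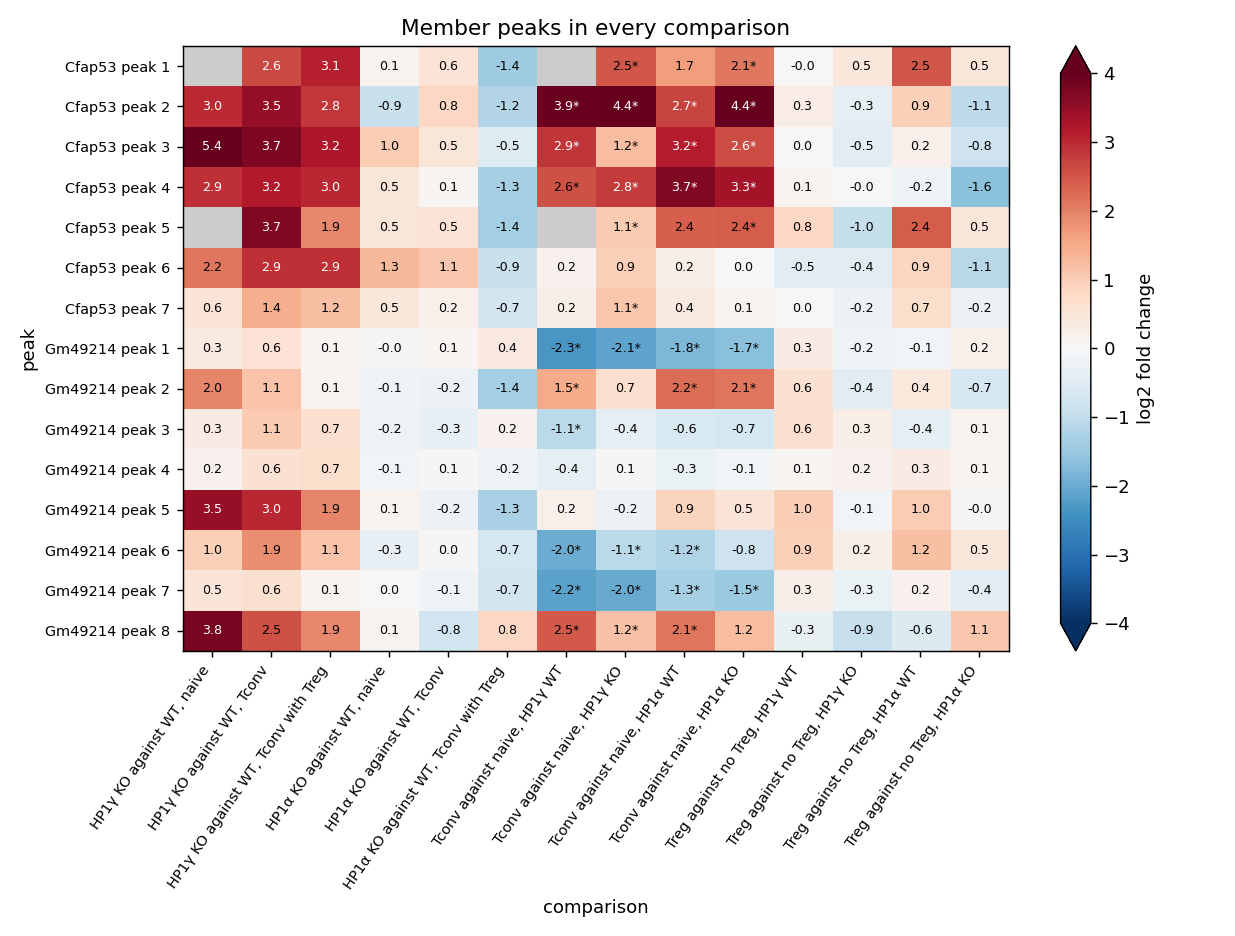
Log2 fold changes (colour and number) of the 15 peaks (rows) in 14 comparisons (columns), the first condition named against the second. A star marks a peak that passed the test in comparisons other than HP1γ KO against WT, and grey cells have at most 3 reads in every library of a group; Cfap53 peaks 2, 3 and 4 are red for Tconv against naive, while Gm49214 peaks 1, 6 and 7 are blue.

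No member passed the thresholds between Tconv with and without Treg. In each line and genotype 0 of 15 peaks were called, where 4839 peaks (6.77%) were in HP1α WT, 0.548% in HP1α KO, 0.137% in HP1γ WT and 8.15% in HP1γ KO. In HP1α KO the group with Treg is 1 library, assumed to vary like the other groups, so its 0 of 15 carries little weight. The shares of all peaks moved with the method and when 1 library was left out. In HP1γ WT, 98 calls became 2329 with DESeq2, 686 with the older quasi-likelihood method of edgeR and 0 with only the groups compared. In that order, the 5831 calls in HP1γ KO became 4678, 3356 and 607, and the 4839 in HP1α WT became 6798, 5360 and 3807. The 4839 calls in HP1α WT became 0 without replicate 1 with Treg, 1474 without replicate 1 without Treg and 2971 without replicate 2 with Treg. The 98 in HP1γ WT ran from 1 to 865, the 5831 in HP1γ KO from 2132 to 9338 and those in HP1α KO from 356 to 696 when 1 library was left out. At an unadjusted p under 0.05 there were 2, 1, 3 and 5 of 15 members in the same order, where 23.2%, 8.54%, 20.3% and 27.2% of all peaks were. In HP1γ KO, 2 members had an adjusted p under 0.05 in edgeR without reaching the fold threshold. These libraries also entered the contrast that chose the windows, so these p-values are not free of that choice. Gm49214 peak 8 held 2.90, 3.05 and 2.27 CPM without Treg in those cells and 1.31, 1.25 and 1.86 CPM with Treg. Its groups did not overlap, and the log2 fold change was -0.92 with an adjusted p of 0.00406. Cfap53 peak 5 gave -0.96 with an adjusted p of 0.0305. Without replicate 3 of HP1γ KO with Treg 2 members were called, and without replicate 2 with Treg, or replicate 2 or 3 without Treg, 1 was.

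Both lead peaks were chosen for their difference in HP1γ KO, and 9 of the 36 libraries are HP1γ KO, so a correlation of their levels in large part restates that choice. As a description, Pearson's r of their log2 CPM was 0.85 over 36 libraries, which also share condition and depth, and 0.90 over the 12 group means. The same holds for the peaks outside the windows whose log2 CPM was most like that of a lead. For Cfap53 peak 3 they were near Gm41538 (chr17:19176951-19178640, r = 0.93), near Dnah12 (chr14:26486821-26487330, 0.89), near Vmn2r-ps121 (chr17:19664521-19665950 and chr17:19655111-19658770, both 0.89) and in Ankrd33b (chr15:31356931-31357470, 0.88). Of these 5, 4 matched Cfap53 peak 1 in sequence, over 269 to 273 bp at 87.5 to 91.1% identity. For Gm49214 peak 5 they were near Gh (chr11:106191091-106191730, r = 0.93), in Cmbl (chr15:31585261-31586050, 0.92), near Gm41538 (chr17:19179261-19180190, 0.87), near Gm61443 (chr13:72268631-72269290, 0.83) and near Gm6291 (chr18:6404991-6405400, 0.83), and 0 of 5 matched a member. Ranked over group means, the first of the Cfap53 list stayed first, and over Gm49214 peak 5 the Cmbl peak came before the Gh peak.

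**Figure D5:**
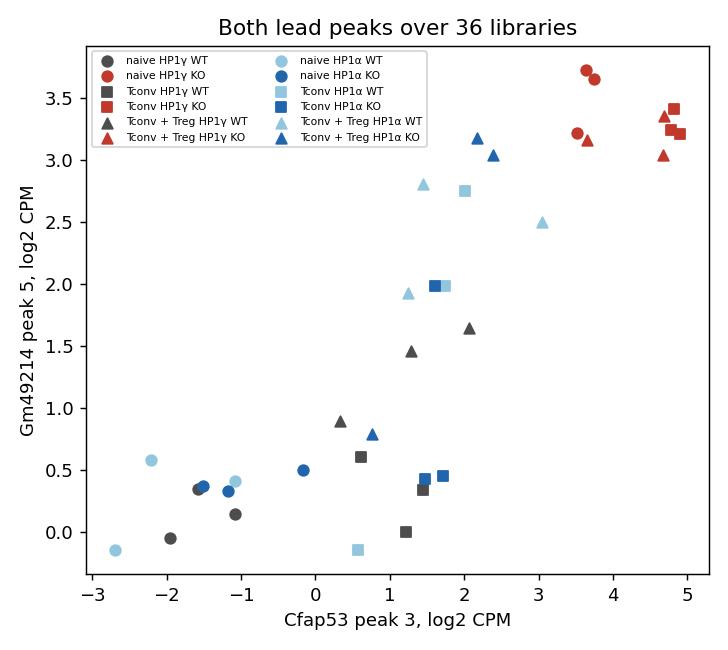
Log2 CPM of Gm49214 peak 5 (y axis) against Cfap53 peak 3 (x axis) in 36 libraries, with symbols for condition and colours for line and genotype. The 9 HP1γ KO libraries lie at the upper right, as both peaks were chosen on them, and Pearson's r is 0.85 over all points.

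Peaks elsewhere with sequence like Cfap53 peaks were found by alignment, and this set was added after its values had been seen. For Cfap53 peak 3 there were 5 outside the windows, at 80.2 to 87.0% identity over 285 to 463 bp. Their log2 fold changes without HP1γ had medians of 2.14 (naive), 1.5 (Tconv) and 2.05 (Treg), and 0, 4 and 4 of them were called higher. A pair on chromosome 19 (chr19:9598621-9599180 and chr19:9604521-9605490) had values of 1.5 to 2.85, while 1 on chromosome 14 (chr14:24143361-24144090) had 2.90 in naive cells and 0.11 and 0.06 in the others. The match on chromosome 13 (chr13:62620161-62621130) had -0.26, 3.40 and 2.36, and that on chromosome 4 (chr4:83325901-83326770) had 0.38, 1.31 and 1.09. The 26 peaks with sequence like Cfap53 peak 2 had medians of 0.37, 0.02 and -0.05, and 3, 7 and 4 of them were called higher. The 19 like peak 1 had medians of 0.87, 0.51 and 0.33, with 5, 4 and 4 called higher. The 2 like peak 5 had medians of -0.04, -0.14 and -0.27, with 0 called. Over all peaks, 0.133%, 1.69% and 6.48% were higher calls.

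The start sites of other genes of motile cilia were counted in the same fits. Of 44 listed genes, which include the master regulator Foxj1 and the axonemal dynein Dnah5, 32 had a peak within 1 kb of a start site. Without HP1γ, 0 (naive), 0 (Tconv) and 1 (Treg, higher) were called, where 0.14%, 3.35% and 11.9% of all peaks were called in either direction, and without HP1α 0 were called in each condition. At an unadjusted p under 0.05 there were 3, 3 and 11 of 32 without HP1γ (8.98%, 19.6% and 35.8% of all peaks) and 0, 0 and 5 without HP1α (1.17%, 4.82% and 16.3%). DESeq2 called 1 without HP1γ in naive cells, where it called 2340 of 71508 peaks, so that 1 of 32 is near that share. Its count without HP1α with Treg, where the KO group is 1 library, is not read. The highest values in naive cells and Tconv were those of Dnah9, an axonemal dynein, with log2 fold changes of 2.55 and 1.4 without HP1γ, which did not pass (adjusted p = 0.344 and 0.0797, edgeR). The peak called with Treg was that of Rsph4a, a radial spoke protein, with a log2 fold change of 1.08 (adjusted p = 0.00475, edgeR) and a median level of 2.06 CPM, and with scaling by library size alone it did not pass. The medians of the list were -0.02, 0.02 and 0.18 without HP1γ, beside 0.03, 0.02 and -0.02 for all peaks.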

How the data were processed

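ATAC-seq read counts per consensus peak, deposited by the authors as raw counts without normalization, were used for 36 samples. The study trimmed its reads with Trim Galore 0.6.7, aligned them to GRCm39, removed duplicates and alignments of low mapping quality, and used featureCounts 2.0.3 over HMMRATAC peaks merged across samples. Reads overlapping neighbouring peaks can count for both, which affects peaks lying side by side. Of 71512 intervals 3 had no width and were left out.

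The HP1α line (15 libraries kept by the study) and the HP1γ line (18) were fitted separately with edgeR 4.0.16 (R 4.3.3), using filterByExpr, TMM scaling, the quasi-likelihood F test (two-sided) and Benjamini-Hochberg adjustment over all peaks. A called peak had an adjusted p below 0.05 together with a fold beyond 1 on the log2 scale. Biological variation (edgeR) was 26.6% in HP1α and 22.2% in HP1γ libraries. CPM used TMM over 36 libraries and log2 CPM a prior count of 2. Medians and folds of single peaks come from the fits. Annotation was GENCODE vM39. Alignments used BLAST 2.17.0, and figures matplotlib 3.10.9 on Python 3.11.15. Fits and word counts were tested on simulated data. No replicate pair in a group agreed within sampling noise.

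The members, gene lists and tests were chosen with earlier results of these data known. Named peaks were, by a fixed rule, the lead of each window (the highest mean HP1γ log2 fold change, skipping Cfap53 peak 5, whose naive WT libraries held at most 3 reads), members past a log2 fold change of 1 or at start sites, the nearest start-site peaks on each side, the 5 peaks most like each lead, called cilia peaks, and the targeted genes; the Cmbl peak is among those most like a lead, and the sequence-matched peaks were chosen after their values were seen. The labels do not say whether libraries of a group came from separate animals, so p-values measure only the spread between these samples, and counts cover counting error only. Same-numbered libraries deviated together (all 3 correlations over 0.1) between naive HP1α genotypes (0.25 to 0.50), HP1γ genotypes exposed to Treg (0.15 to 0.32) and HP1γ WT with and without Treg (0.20 to 0.29), and in no other comparison.

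Alternatives were library size alone, loess offsets (span 0.3), DESeq2 1.42.0, no filter beyond 1 read, a fit restricted to the compared groups, a replicate block, all 18 HP1α libraries, each library left out, a prior count of 0.5, and a start-site distance of 5 kb. The older quasi-likelihood method of edgeR was added after seeing the data.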

Additional observations from a re-analysis of the deposited data

Results flagged for a closer look

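At 3 members the libraries of 2 lines moved in opposite directions under the same contrast, with no overlap in either line, counting every library. The differences themselves were not tested. The 3 came from 165 pairings of a peak with 2 comparisons, which is 1.82%, and among all 71509 peaks the same held in 6798 of 786599 pairings, which is 0.864%. For the pairings of the 3 members in turn, it held at 0.62%, 3.83% and 0.526% of all peaks.

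Gm49214 peak 3, in a Ropn1l intron, was lower in Tconv without HP1α (log2 fold change -0.33) and higher without HP1γ (1.06), a difference of -1.39. Gm49214 peak 4, at the Ropn1l start site, was lower in Tconv with Treg without HP1α (-0.19) and higher without HP1γ (0.72), a difference of -0.90, where the HP1α value comes from a fit with 1 KO library. At both peaks the HP1γ direction belongs to the contrast that chose the windows, in which all 15 members had fitted values above 0, so these values are descriptions. Gm49214 peak 8 was higher with Treg than without in HP1α KO (1.07) and lower in HP1γ KO (-0.92), a difference of 1.99. The HP1α KO libraries behind it held 37, 13 and 19 reads with Treg and 21, 22 and 16 without, and the libraries with Treg of 7.12 and 5.73 M reads were left out of the fit.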

How the results depend on the processing

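The HP1γ differences at the lead peaks were recomputed under every alternative and each moved by less than the spread between replicates. They ranged from 5.14 to 5.61 in naive cells, 3.53 to 3.90 in Tconv and 2.82 to 3.59 with Treg for Cfap53 peak 3, and from 3.35 to 3.59, 2.86 to 3.16 and 1.71 to 2.08 for Gm49214 peak 5 (log2 fold changes). The counts of members called between naive cells and Tconv stayed within 1.5 times the values given above. With the replicate number as a block, they were 10 in HP1α WT, 8 in HP1α KO, 11 in HP1γ WT and 10 in HP1γ KO, against 8, 8, 11 and 10 without it, and no call named here was lost with the block. Of all peaks, 42.5%, 42.6%, 46.5% and 43% were called in either direction without the block, in that order. With the block, 31003, 31109, 33362 and 30978 peaks were called.

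Leaving out 1 library at a time, 0 to 1 members passed for HP1α KO against WT in Tconv and 0 to 2 for Treg against no Treg in HP1γ KO. The latter reached 2 without TconvTreg replicate 3 of HP1γ KO and 1 under loess offsets, and the older quasi-likelihood method gave 1 for Treg in HP1γ WT. For cilia start sites, DESeq2 gave 1 in naive HP1γ KO, where it called 2340 of 71508 peaks. Its count in HP1α KO with Treg comes from 1 KO library and is not read. HP1γ KO with Treg gave 0 with library size alone and 2 with loess offsets, where 8594 and 8401 of all peaks were called. Over all peaks, leaving out 1 library moved the higher calls without HP1γ from 95 to as few as 55 in naive cells (without KO replicate 3), from 1207 to between 539 (without WT replicate 2) and 1687 (without KO replicate 1) in Tconv, and from 4635 to between 2394 (without WT replicate 2) and 6716 (without KO replicate 2) with Treg. The 95 naive higher calls became 2320 with DESeq2, 1024 with only the groups compared and 414 with the older quasi-likelihood method. The 1207 in Tconv became 1512, 387 and 887 in that order, and the 4635 with Treg became 4353, 2018 and 3435. The shares of all peaks given beside counts, 0.133% among them, therefore depend on the method. The causes were not tested.

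Calls of single peaks between naive cells and Tconv were lost in 16 pairings of a peak with a left-out library and in 12 with another alternative, all with the direction kept. They included Gm49214 peak 8 in HP1α WT (0.40 with loess offsets), Cfap53 peak 2 in HP1α WT (1.44 with loess offsets; 2.08 without naive WT replicate 2), Cfap53 peak 4 in HP1α WT (2.66 without Tconv WT replicate 2) and Cfap53 peak 1 in HP1α KO (0.03 with loess offsets). Depth limits the HP1α groups with Treg. Low counts limit peaks 1, 2, 4 and 5 of the Cfap53 window, which held at most 14 reads in any naive WT library.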
